A study of Homo sapiens with 12 samples.

Results

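The splicing machinery genes described here are those whose symbols begin with SRSF, HNRNP, SNRP, SF3A or SF3B. Of 64 rows with these prefixes, 9 pseudogenes and 2 hyphenated names were dropped, which left 53 genes. All 53 were listed in both deposited tables, which hold 11070 genes for 23132/87 cells and 11554 for SW48 cells, or 12372 genes in either. They comprise 11 SRSF genes, which encode SR proteins, 22 HNRNP genes, 7 Sm core protein genes, 4 genes for proteins particular to the U1 and U2 particles, and 9 SF3 subunit genes. The protein-coding family members SRSF12, SNRPN, HNRNPCL1, HNRNPCL2, HNRNPCL3 and HNRNPCL4 were not listed in either table.

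Transcript levels were measured by stranded mRNA sequencing in 4 groups of 3 biological replicates, 12 libraries in all. These were 23132/87 cells given 10 µM myricone C (MyrC), SW48 cells given 10 µM MyrC, 23132/87 cells given vehicle (CON, 0.1% DMSO) and SW48 cells given vehicle, all harvested after 48 h. 23132/87 is an established gastric adenocarcinoma line and SW48 an established colorectal adenocarcinoma line, both with the genotype label WT and both grown in RPMI-1640 with fetal bovine serum. Myricone C is a plant neolignan, per the series title. Each tumour type is thus represented by a single line, and the labels name a single dose and time. Values are the authors' normalized expression values per gene. They appear to be scaled to gene length, which the sources used here do not state, so levels are compared between genes only with that limit.

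Pre-mRNA splicing is carried out by small nuclear ribonucleoproteins (snRNPs), in which a ring of Sm proteins encircles a small nuclear RNA. The U2 particle carries the SF3A and SF3B complexes, which hold the branch point of the intron. SR proteins mostly bind exonic sequences and promote the use of nearby splice sites, whereas hnRNPs coat nascent transcripts and often oppose that use. Many SR protein genes control their own level by including an exon with an early stop codon, which sends the transcript to nonsense-mediated decay.

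In both lines 7 of 7 epithelial markers were listed, although their levels moved with treatment. Of 7 gastric markers, 1 (TFF1) was listed in 23132/87 and 0 in SW48, and of 7 intestinal markers 4 and 2 were listed in those lines, so the labelled tissue could be checked only in part. These markers also moved with MyrC. In 23132/87 VIL1 changed by -1.54 ± 0.18, LGALS4 by 1.44 ± 0.33 and TFF1 by -0.85 ± 0.17 (log2, SE). In SW48 CDX2 changed by -1.47 ± 0.18. The other listed intestinal markers, 2 in 23132/87 and 1 in SW48, were not called. Leukocyte and mesenchymal markers were nearly absent, with 1 of 6 listed for each in 23132/87 (CD68 and COL1A1) and 0 of 6 for each in SW48. CD68 was higher in MyrC-treated 23132/87 libraries, at 12.9 to 14.8, against 3.95 to 6.48 in CON libraries, and its part in the results was not tested. The SW48 library labelled MyrC replicate 1 stood apart: 7SL, 7SK and small nuclear RNA genes took 5.26% of its summed values, against at most 0.204% in the other SW48 libraries. It also lay nearer to CON on the first principal component, at 14.4 against 36.5 and 29.1 for the other MyrC libraries. Without that library 25 of the 53 genes were called lower in SW48 and 0 higher, as many as with it, although HNRNPA0 was no longer called (log2 change -0.39, limma adjusted p = 0.0953).

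The promoters of 6 of these genes are shown. SNRPG, SNRPB and SNRPD2 encode Sm proteins, SRSF3 an SR protein and HNRNPM an hnRNP, all called lower in both lines, and SF3B1 was called in neither. Each line gives the 150 bases before the start of the first RefSeq window of the gene (GRCh38.p14), 5′ to 3′ on the strand of the gene. The regions are chr2:70293459-70293608 (-) for SNRPG, chr20:2470790-2470939 (-) for SNRPB, chr19:45692317-45692466 (-) for SNRPD2, chr6:36594212-36594361 (+) for SRSF3, chr19:8444825-8444974 (+) for HNRNPM and chr2:197435029-197435178 (-) for SF3B1. Capitals mark the letters CCGGAAG, known as an ETS site, CCAAT, the box of that name, CACGTG, an E-box, and TATAAA, the TATA box, read on either strand. SNRPG, SNRPB and SNRPD2 hold an ETS site, SNRPD2 and SRSF3 also 2 CCAAT boxes each, SRSF3 a TATA box, and HNRNPM and SF3B1 an E-box. The Sm genes SNRPD3, SNRPE and SNRPF, also called lower in both lines, are not printed. The same bases of SNRPD3 and SNRPE hold none of these motifs, and those of SNRPF hold 2 CCAAT boxes and no ETS site.
SNRPG: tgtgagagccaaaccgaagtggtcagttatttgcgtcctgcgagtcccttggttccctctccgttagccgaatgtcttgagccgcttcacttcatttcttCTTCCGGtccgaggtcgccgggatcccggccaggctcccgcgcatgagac
SNRPB: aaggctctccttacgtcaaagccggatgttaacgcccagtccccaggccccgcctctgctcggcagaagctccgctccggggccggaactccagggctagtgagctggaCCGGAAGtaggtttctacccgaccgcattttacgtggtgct
SNRPD2: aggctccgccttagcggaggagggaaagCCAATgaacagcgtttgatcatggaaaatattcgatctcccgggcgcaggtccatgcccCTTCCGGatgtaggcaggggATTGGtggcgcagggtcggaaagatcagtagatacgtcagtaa
SRSF3: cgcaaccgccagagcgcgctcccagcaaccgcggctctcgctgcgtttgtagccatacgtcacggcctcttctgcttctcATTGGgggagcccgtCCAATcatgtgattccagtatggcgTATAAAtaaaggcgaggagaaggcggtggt
HNRNPM: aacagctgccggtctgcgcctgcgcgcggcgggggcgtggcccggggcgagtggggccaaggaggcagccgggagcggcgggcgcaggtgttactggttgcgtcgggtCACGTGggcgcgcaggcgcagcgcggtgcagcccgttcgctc
SF3B1: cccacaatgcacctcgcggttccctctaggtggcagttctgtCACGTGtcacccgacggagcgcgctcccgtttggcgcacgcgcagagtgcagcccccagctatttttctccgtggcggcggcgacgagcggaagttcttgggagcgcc

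RefSeq windows of 250 bases before to 50 bases after a start were available for 48 of the 53 genes. SRSF2, HNRNPA1, SNRPD1, SF3B3 and HNRNPA1L3 were without one. The ETS letters CCGGAAG were found on either strand in 20 of 68 windows of these genes (29.4%), against 10.3% of all 35116 windows, and in 6 of 11 windows of Sm genes. They were present in 18 of the 48 genes, among them SNRPG, SNRPB and SNRPD2 above but also SF3A1, SF3A2 and SF3A3, which were called in neither line. SNRPE held them only outside the bases described above, and the lowered Sm genes SNRPD3 and SNRPF held them in no window. CACGTG was found in 14.7% of the windows against 7.26% of all, and CCAAT in 39.7% against 34.6%. TATAAA was found in 10.3% against 11.5%, and AAGATGG, the core of a YY1 site, in 5.88% against 5.84%. TGACGTCA, a cyclic AMP response element, and TTTCGCGC, an E2F site, were in 0 of the 68 windows, against 1.85% and 0.515% of all. Some windows of one gene overlap each other, and the motifs share no letters in the windows printed above. The windows of these genes had a median GC content of 62.5% against 58.7% over all windows. These matches describe letters and were not tested against the expression changes.

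Most of the genes were lower after MyrC in both lines, and the Sm core proteins fell furthest as a class. In 23132/87, 36 of the 53 genes were called lower and 1 higher (limma, Benjamini-Hochberg adjusted p under 0.05 over all genes). Over all listed genes of that line, 23.2% were called lower and 23.3% higher. In SW48, 25 were called lower and 0 higher, whereas 19.2% of all genes were called lower and 10.1% higher. At an unadjusted p under 0.05, and in limma without a trend, 0 were also higher in SW48. The median log2 change of the 53 genes, on the log2(value + 1) scale, was -0.35 in 23132/87, where that of all genes was 0.01. It was -0.35 in SW48, where that of all genes was -0.08. In 23132/87, all 3 MyrC libraries lay below all 3 CON libraries for 40 of the 53 genes (75.5%), a pattern found in 27.9% of all genes. In SW48 that held for 36 genes (67.9%), against 28.4% of all genes.

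**Figure D1:**
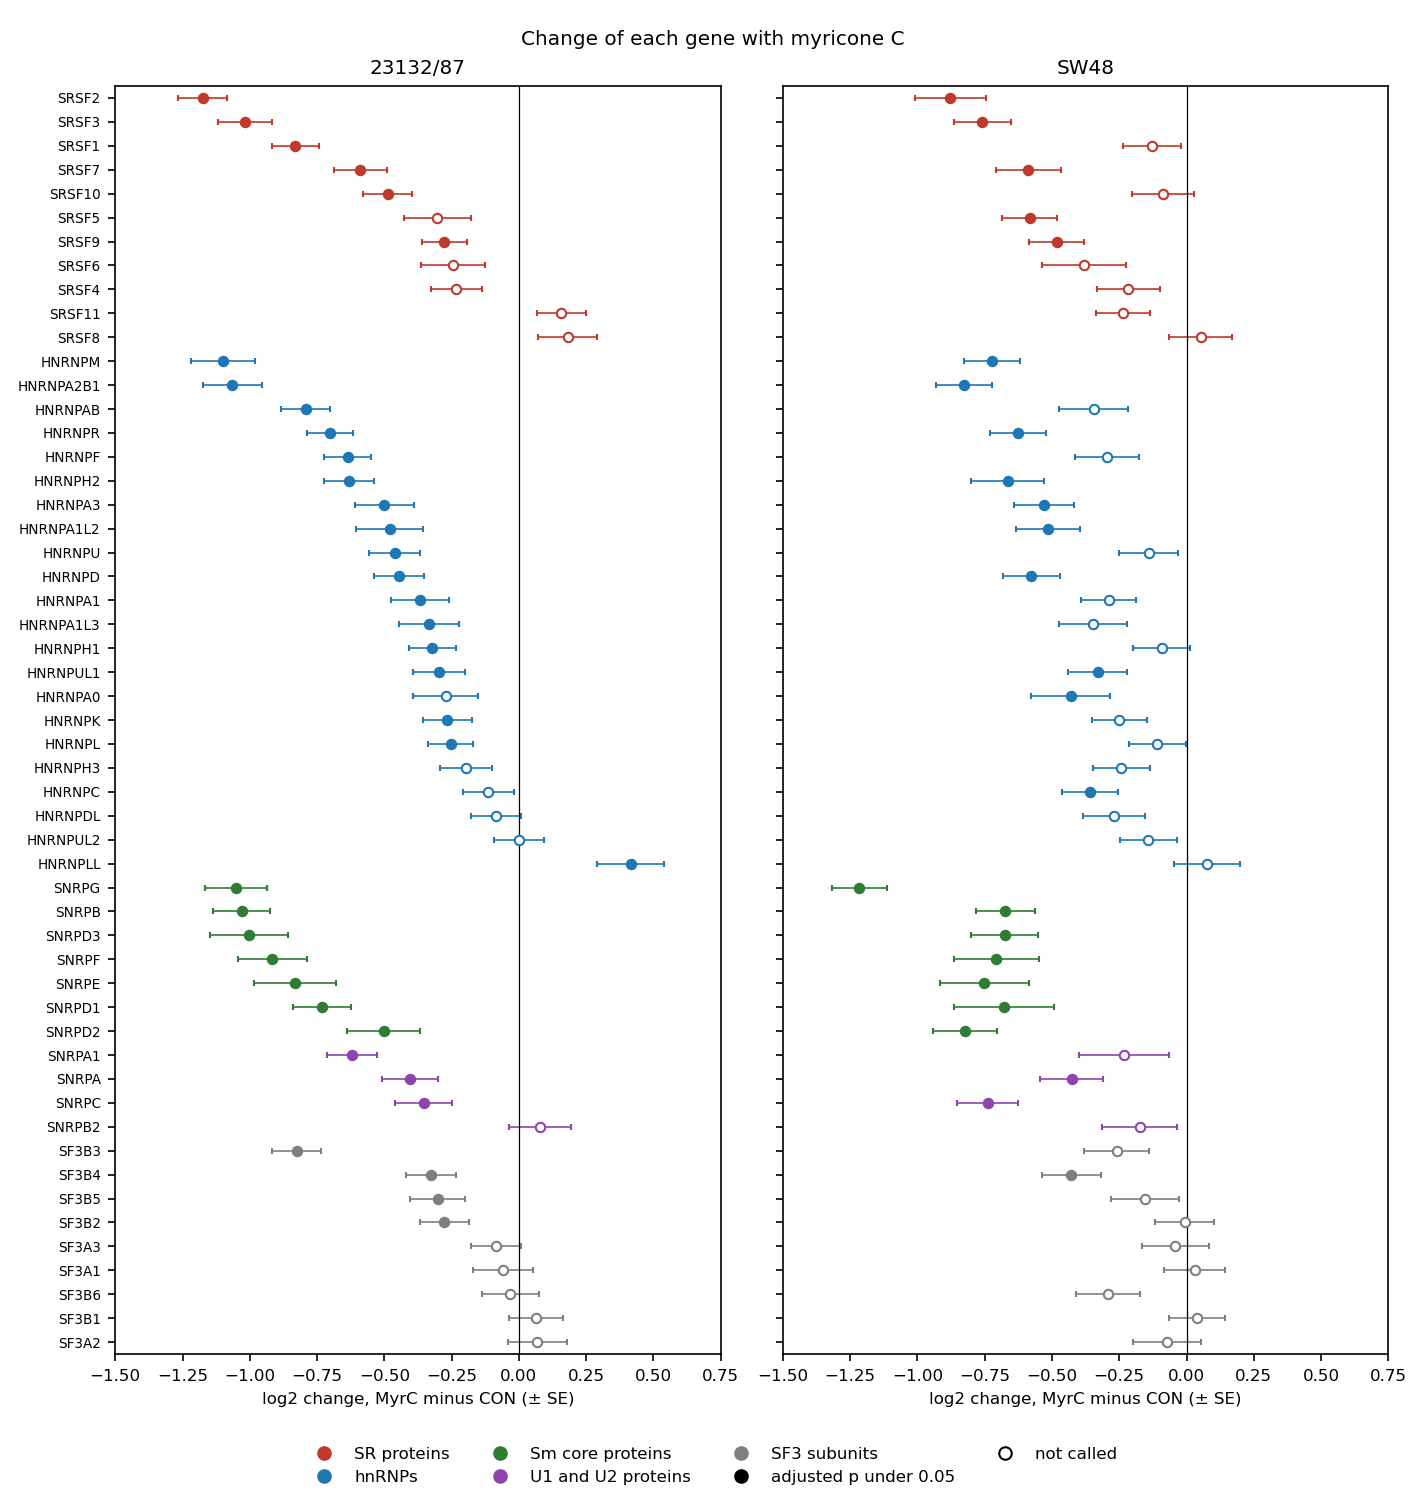
Log2 change (MyrC minus CON, log2(value + 1) scale) of each of the 53 genes in 23132/87 (left) and SW48 (right), with bars of 1 limma standard error. Filled points passed an adjusted p under 0.05. All 7 Sm core genes are filled in both panels, and the SF3 subunits have the class medians nearest to 0.

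Summed over the 53 genes, expression took 0.992% to 1.04% of a library's listed total in MyrC-treated 23132/87 cells, against 1.31% to 1.34% in CON cells. In SW48 it took 1.11% to 1.19% in MyrC cells, against 1.39% to 1.46% in CON cells. The groups did not overlap in either line. These are values relative to the other transcripts of the library, and in bulk samples fewer cells and less RNA per cell cannot be told apart.

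The Sm core proteins, the ring shared by the major spliceosomal particles, were lower without exception: 7 of 7 were called lower in both lines, as 12% of all genes were. Their median log2 change was -0.92 in 23132/87 and -0.71 in SW48. The summed level of the 7 genes was 583.5 ± 95.9 in MyrC and 1043 ± 37.1 in CON in 23132/87 (SD, n = 3). In SW48 it was 612 ± 20.1 in MyrC and 1065 ± 121 in CON. The 2 sums correspond to falls of 44.0% in 23132/87 and 42.6% in SW48, beside falls of 5.85% and 5.95% in the mean listed total of those libraries.

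**Figure D2:**
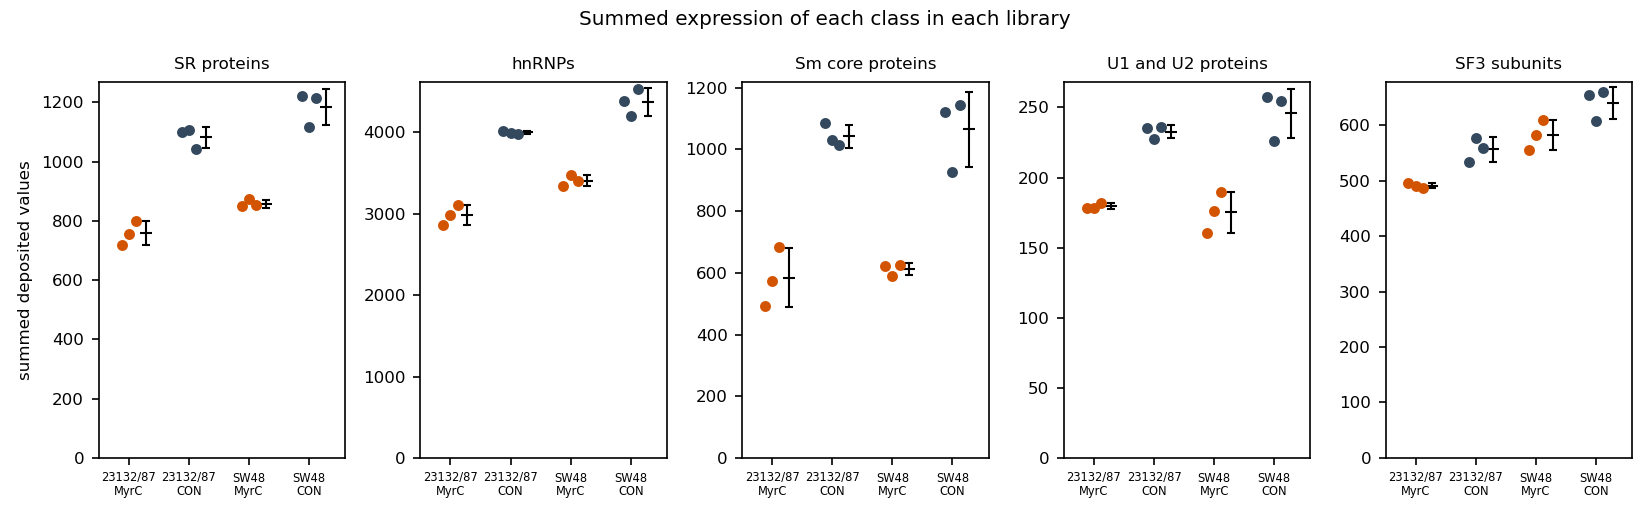
Summed deposited values of each class in each library, with MyrC (orange) left of CON (dark) in each line and the mean ± SD (n = 3) beside the points. The MyrC libraries lie below the CON libraries in every panel except for SF3 subunits in SW48, where the highest MyrC library lies just above the lowest CON library.

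SNRPG, which encodes SmG, had 61.5, 69.5 and 82.1 in the MyrC libraries of 23132/87, against 150.1, 139 and 153 in the CON libraries. All MyrC values lay below all CON values, and the log2 change was -1.05 ± 0.11 (SE, limma adjusted p = 8.67e-05). SW48 libraries had 58.7, 62.7 and 62.1 in MyrC, against 148, 138 and 144 in CON. The MyrC libraries were again clearly separate and close to one another, with a log2 change of -1.22 ± 0.10 (limma adjusted p = 5.22e-05), the largest fall among the 53 genes in that line.

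SNRPB encodes SmB and SmB′ and is itself known to be regulated through an alternative exon and decay. It had 69.5, 70.8 and 86.5 in MyrC and 156, 161 and 147 in CON in 23132/87. The highest MyrC library lay well under the lowest CON library, and the log2 change was -1.03 ± 0.11 (limma adjusted p = 6.45e-05). The SW48 libraries had 104, 87.2 and 101 in MyrC and 161, 152 and 154 in CON. The separation was smaller but complete, at a log2 change of -0.67 ± 0.11 (limma adjusted p = 0.00122).

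SNRPD2, which encodes SmD2, had 148, 119.8 and 147 in MyrC and 259, 225 and 249 in CON in SW48, a log2 change of -0.82 ± 0.12 (limma adjusted p = 0.000679). In 23132/87 it had 117, 146 and 172 in MyrC and 214, 199 and 196 in CON, where the change was -0.50 ± 0.14 (limma adjusted p = 0.0125). It was the least lowered Sm gene in 23132/87 and the second most lowered in SW48, although its difference between lines was not called. The other Sm genes, SNRPD1, SNRPD3, SNRPE and SNRPF, fell by 0.73, 1.00, 0.83 and 0.92 on the log2 scale in 23132/87. In SW48 those 4 fell by 0.68, 0.68, 0.75 and 0.71. SW48 CON replicate 2 was low for this class, with a sum of 926 against 1122 and 1145 in the other CON libraries, and without it the class median in SW48 was -0.88. SNRPD1 in SW48 was no longer called when CON replicate 1, CON replicate 3 or MyrC replicate 3 was left out.

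Among the proteins particular to single particles, SNRPA and SNRPC, components of the U1 particle that recognises the 5′ splice site, were called lower in both lines. SNRPA changed by -0.40 ± 0.10 in 23132/87 and by -0.43 ± 0.12 in SW48, and SNRPC by -0.35 ± 0.11 in 23132/87 and by -0.74 ± 0.11 in SW48 (log2, SE). SNRPA1, a U2 protein, was called lower in 23132/87, at -0.62 ± 0.09, and not called in SW48, at -0.23 ± 0.17. SNRPB2, its partner in the U2 particle, was called in neither line, at 0.08 ± 0.12 in 23132/87 and -0.17 ± 0.14 in SW48. In all, 3 of 4 were called lower in 23132/87 and 2 of 4 in SW48, against 23.2% and 19.2% of all genes. The SNRPA call in SW48 was lost without CON replicate 1, CON replicate 3 or MyrC replicate 3 and after quantile normalization, which also ended it in 23132/87. The SNRPC call in 23132/87 was lost without CON replicate 2 or 3 and after quantile normalization.

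SR proteins were divided. In 23132/87, 6 of 11 were called lower and 0 higher, with a median log2 change of -0.30, and in SW48 5 of 11 were called lower and 0 higher, with a median of -0.38. That is 54.5% lower in 23132/87 and 45.5% in SW48, against 23.2% and 19.2% of all genes. SRSF2, SRSF3, SRSF7 and SRSF9 were called lower in both lines, although SRSF9 in 23132/87 was lost without CON replicate 1 or 2 or MyrC replicate 2 or 3. Calls made in a single line were SRSF1 and SRSF10 in 23132/87 and SRSF5 in SW48. SRSF4, SRSF6, SRSF8 and SRSF11 were called in neither line. The summed level of the class was 758 ± 39.8 in MyrC and 1082 ± 35.9 in CON in 23132/87 (SD, n = 3), and 859 ± 13.6 in MyrC and 1185 ± 59.6 in CON in SW48.

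SRSF2 (SC35), an SR protein that marks nuclear speckles, had 40.1, 44.6 and 45.7 in MyrC and 98.3, 97.9 and 102 in CON in 23132/87. The groups were far apart, and its log2 change of -1.17 ± 0.09 (limma adjusted p = 1.1e-05) was the largest fall of the 53 genes in that line. The SW48 values were 66.2, 57.1 and 48.8 in MyrC and 109, 96.6 and 112 in CON. The MyrC libraries varied more there but stayed below every CON library, with a log2 change of -0.88 ± 0.13 (limma adjusted p = 0.000778).

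SRSF3 (SRp20), the smallest of the classical SR proteins and also an mRNA export adaptor, had 72.8, 85.7 and 87.9 in MyrC and 164, 172 and 164 in CON in 23132/87. The change was -1.02 ± 0.10 on the log2 scale (limma adjusted p = 4.48e-05). For SW48 the values were 82.5, 91.5 and 85.9 in MyrC and 142, 141 and 159 in CON, with a log2 change of -0.76 ± 0.11 (limma adjusted p = 0.000592). No MyrC library reached the lowest CON library in either line.

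SRSF1 (SF2/ASF), the founding SR protein and a known proto-oncogene, behaved differently in the lines. In 23132/87 it had 69.2, 71.8 and 75.8 in MyrC and 126, 128 and 134 in CON, a log2 change of -0.83 ± 0.09 (limma adjusted p = 6.85e-05). In SW48 it had 131, 133 and 144 in MyrC and 143, 141 and 163 in CON, and the groups overlapped. The change there was -0.13 ± 0.11 (95% interval -0.37 to 0.11, limma adjusted p = 0.404).

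**Figure D3:**
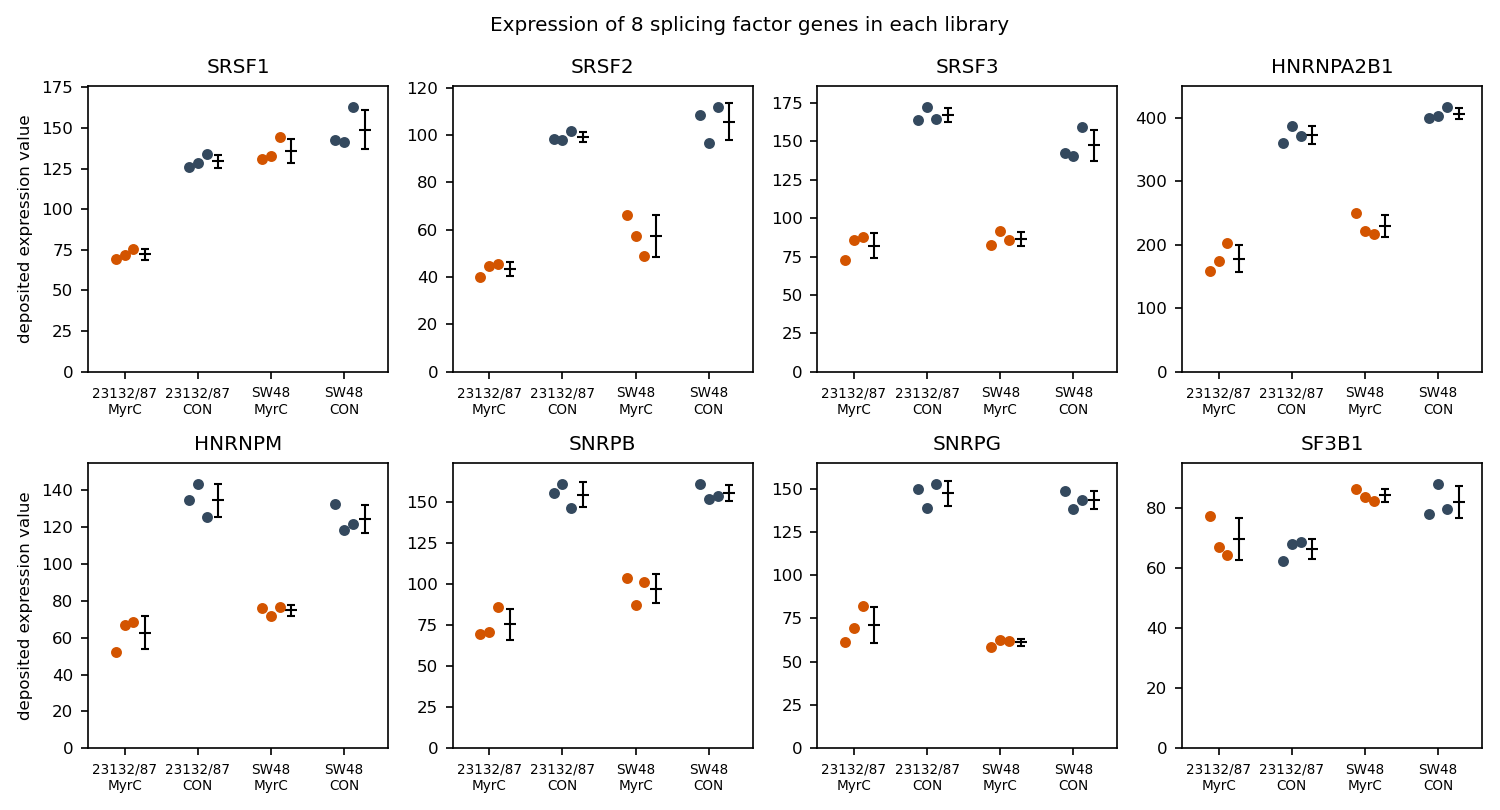
Deposited expression values of 8 genes in each library, MyrC (orange) left of CON (dark) within each line, with the mean ± SD (n = 3) beside the points. MyrC and CON libraries are separate in both lines for SRSF2, SRSF3, HNRNPA2B1, HNRNPM, SNRPB and SNRPG, in 23132/87 alone for SRSF1, and in neither line for SF3B1.

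GENCODE release 29 annotates at least 1 transcript bound for nonsense-mediated decay in 11 of 11 SRSF genes, 13 of 22 HNRNP genes, 2 of 7 Sm genes (SNRPB and SNRPD3), 2 of 4 U1 and U2 genes and 3 of 9 SF3 genes. That makes 31 of the 53 genes (58.5%), against 44.4% of the 11216 listed protein-coding genes. The values are per gene and do not separate such transcripts from productive ones.

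The hnRNPs held the most abundant transcripts and fell unevenly. In 23132/87, 16 of 22 were called lower and 1 higher, with a median log2 change of -0.35. In SW48, 10 of 22 were called lower and 0 higher, with a median of -0.34. The shares called lower were 72.7% in 23132/87 and 45.5% in SW48, against 23.2% and 19.2% of all genes. The share called higher in 23132/87 was 4.55%, against 23.3% of all genes. Genes called lower in both lines numbered 8, namely HNRNPA2B1, HNRNPM, HNRNPR, HNRNPH2, HNRNPA3, HNRNPD, HNRNPUL1 and HNRNPA1L2. The HNRNPUL1 call was lost in 5 of the 6 fits that left out 1 library in each line, all but that without CON replicate 3 in 23132/87 and that without MyrC replicate 1 in SW48. The summed level of the class was 2991 ± 123 in MyrC and 4000.0 ± 19.1 in CON in 23132/87 (all 22 genes, SD, n = 3). In SW48 the sum was 3407 ± 69.2 in MyrC and 4374 ± 168 in CON.

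HNRNPA2B1, which binds pre-mRNA and also N6-methyladenosine-marked RNA, had 159.5, 174 and 202 in MyrC and 360.3, 388 and 371 in CON in 23132/87. Its log2 change was -1.07 ± 0.11 (limma adjusted p = 5.95e-05), with the groups far apart. SW48 cells had 249.8, 221 and 218 in MyrC and 401, 403 and 417 in CON, a log2 change of -0.83 ± 0.10 (limma adjusted p = 0.00034).

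HNRNPM, a regulator of alternative exons in epithelial and mesenchymal cell states, had 52.3, 66.8 and 68.6 in MyrC and 134, 143 and 125 in CON in 23132/87. The log2 change was -1.10 ± 0.12 (limma adjusted p = 7.96e-05). In SW48 HNRNPM had 76.1, 71.6 and 76.5 in MyrC and 133, 118 and 122 in CON, a log2 change of -0.72 ± 0.10 (limma adjusted p = 0.000679). Every MyrC library was below every CON library in both lines.

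HNRNPA1, a classical repressor of exon inclusion, had the highest level of the 53 genes in both lines. It had 501, 546 and 587 in MyrC and 733, 677 and 695 in CON in 23132/87, and its log2 change of -0.37 ± 0.11 passed the test (limma adjusted p = 0.0189). That call was lost when CON replicate 1, CON replicate 2 or MyrC replicate 2 was left out. In SW48 HNRNPA1 had 821, 849.8 and 800.2 in MyrC and 974, 1006 and 1041 in CON. The SW48 groups did not overlap, yet the change of -0.29 ± 0.10 (95% interval -0.51 to -0.07) missed the threshold (limma adjusted p = 0.0526).

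The A1-like genes HNRNPA1L2 and HNRNPA1L3 are near-identical copies of HNRNPA1, so reads may be split among the 3 and their values are uncertain. The dropped pseudogenes include copies of HNRNPA1, HNRNPA3, HNRNPC, SNRPG and SRSF6. Whether these genes share reads with their pseudogenes was not tested. HNRNPA1L3 had the lowest CON level of the 53 genes in 23132/87, at 12.4 ± 0.309, and SRSF8 in SW48, at 13.7 ± 0.770 (SD, n = 3). Without both A1-like genes, 14 of 20 hnRNPs were called lower in 23132/87 and 9 of 20 in SW48.

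HNRNPLL, which regulates alternative splicing in lymphocytes, was the single gene called higher. It had 25.6, 23.4 and 22.6 in MyrC and 14.8, 19.2 and 19.3 in CON in 23132/87, a log2 change of 0.42 ± 0.12 (limma adjusted p = 0.0203). The groups did not overlap, but the call was lost without CON replicate 1 or without MyrC replicate 1. In SW48 it had 14.6, 17.1 and 17.4 in MyrC and 15.2, 15.0 and 16.1 in CON, which overlapped, and the change was 0.08 ± 0.12 (limma adjusted p = 0.682).

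The SF3 subunits had the class medians nearest to 0. In 23132/87, 4 of 9 were called lower (SF3B2, SF3B3, SF3B4 and SF3B5; 44.4%, against 23.2% of all genes), with a class median of -0.08. The calls of SF3B2 (without CON replicate 1 or 2 or MyrC replicate 2 or 3), SF3B5 (without CON replicate 1 or 2 or MyrC replicate 1 or 2) and SF3B4 (without CON replicate 2 or MyrC replicate 3) were lost when 1 library was left out, and that of SF3B3 was not. In SW48, 1 of 9 was called lower (SF3B4; 11.1%, against 19.2% of all genes), a call lost without CON replicate 3, with a class median of -0.07, which was 0.02 after quantile normalization and -0.01 without MyrC replicate 1. None of the SF3A genes was called in either line. SF3B1, which contacts the branch point and is often mutated in cancer, had 77.5, 66.9 and 64.4 in MyrC and 62.5, 68.0 and 68.6 in CON in 23132/87. Its log2 change of 0.06 ± 0.10 (95% interval -0.16 to 0.29, limma adjusted p = 0.627) turned to -0.01 without MyrC replicate 1. In SW48 SF3B1 had 86.5, 83.8 and 82.3 in MyrC and 78.1, 88.1 and 79.8 in CON, a log2 change of 0.04 ± 0.10 (95% interval -0.19 to 0.27, limma adjusted p = 0.808).

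SF3B3, a scaffold subunit of SF3B, had the largest change of the SF3 genes in 23132/87. It had 18.9, 19.0 and 18.9 in MyrC and 35.4, 33.7 and 33.9 in CON, a log2 change of -0.83 ± 0.09 (limma adjusted p = 8.71e-05). In SW48 it had 25.9, 26.9 and 23.4 in MyrC and 31.4, 27.6 and 32.9 in CON. The SW48 groups did not overlap, but the change of -0.26 ± 0.12 (95% interval -0.52 to 0.01) did not pass (limma adjusted p = 0.126).

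The response of the 2 lines was compared over the 10252 genes in both tables. Called lower in both were 22 of the 53 genes, against 12% of all genes. A further 15 were called in 23132/87 alone, 3 in SW48 alone and 13 in neither, and 0 were called in opposite directions. Of all 10252 genes, 2713 were called in 23132/87 alone, 974 in SW48 alone, 4505 in neither and 96 in opposite directions. None of the 53 was called higher in both lines, as 7.14% of all genes were. A call in a single line does not show that the lines differ, so the difference itself was tested as the line-by-treatment term. It was called for 3 of the 53 genes, against 12.8% of all genes.

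SRSF1 and SF3B3 fell less in SW48 than in 23132/87. The SW48 change minus the 23132/87 change was 0.70 ± 0.13 on the log2 scale for SRSF1 (limma adjusted p = 0.00339). For SF3B3 it was 0.57 ± 0.14 (limma adjusted p = 0.0163), a call lost with a replicate block by title number. Over all genes 5.34% had a positive difference called. SRSF11, an SR-related protein found in the spliceosome, was the single gene called the other way, at -0.39 ± 0.12 (limma adjusted p = 0.0487), as were 7.43% of all genes. It had 58.4, 56.9 and 58.7 in MyrC and 67.1, 67.4 and 71.0 in CON in SW48, with MyrC below CON. In 23132/87 it had 65.6, 64.7 and 62.8 in MyrC and 57.9, 61.7 and 53.5 in CON, with MyrC above CON. Neither line passed the test on its own (limma adjusted p = 0.104 in SW48 and 0.184 in 23132/87), and the call for the difference was lost when any 1 of the 12 libraries was left out.

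**Figure D4:**
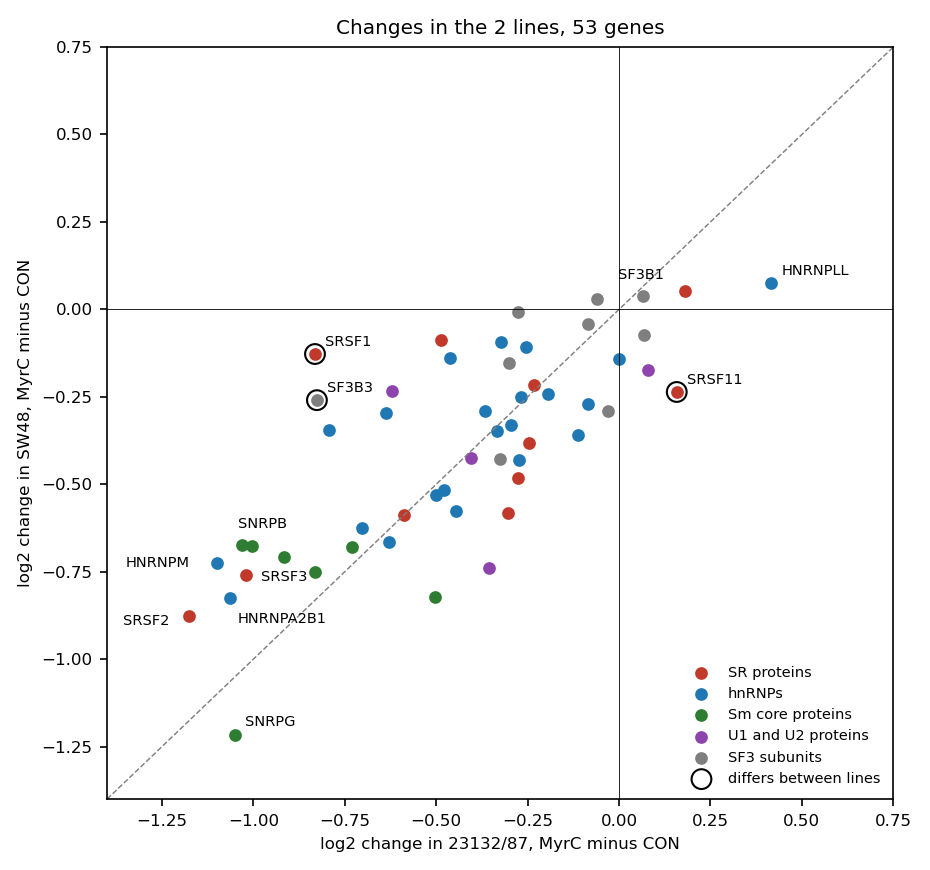
Log2 change (MyrC minus CON) in SW48 against that in 23132/87 for the 53 genes, coloured by class, with equality as a dashed line. Circled genes differed between lines at an adjusted p under 0.05. Most genes lie in the lower left of the plot, and SRSF1 and SF3B3 lie above the dashed line.

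Other genes of the splicing pathway, taken from 10 lists, gave 56 lower and 25 higher of 173 listed in 23132/87 (32.4% and 14.5%, against 23.2% and 23.3% of all genes), with a median log2 change of -0.15. In SW48 the counts were 36 lower and 8 higher of 171 (21.1% and 4.68%, against 19.2% and 10.1% of all genes), with a median of -0.15. The share called lower in SW48 was thus near that of all genes. The LSM genes, whose rings resemble the Sm ring and bind U6 RNA or decaying mRNA, had 5 of 10 called lower and 1 higher in 23132/87 and 6 of 10 lower and 0 higher in SW48. That is 50% lower in 23132/87 and 60% in SW48, against 23.2% and 19.2% of all genes. The share called higher in 23132/87 was 10%, against 23.3% of all genes. LSM2 changed by -0.84 ± 0.14 in 23132/87 and by -1.05 ± 0.12 in SW48, and LSM3 by -1.19 ± 0.14 in 23132/87 and by -1.03 ± 0.15 in SW48 (log2, SE).

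Further snRNP proteins with SNRNP symbols had 4 of 7 called lower in 23132/87 and 3 of 7 in SW48, with 0 higher in either. That is 57.1% lower in 23132/87 and 42.9% in SW48, against 23.2% and 19.2% of all genes. SNRNP70, the U1 70K protein, changed by -0.85 ± 0.14 in 23132/87 and by -0.68 ± 0.14 in SW48. SNRNP25, a protein of the minor spliceosome, had 10.2 ± 2.28 in MyrC and 41.8 ± 1.07 in CON in 23132/87 and 9.72 ± 3.26 in MyrC and 22.3 ± 3.31 in CON in SW48 (SD, n = 3). Its log2 changes were -1.95 ± 0.15 in 23132/87 and -1.15 ± 0.20 in SW48 (SE). The minor spliceosome list as a whole had 1 of 12 lower and 2 higher in 23132/87, where ZMAT5 changed by 0.56 ± 0.13. In SW48 it had 3 lower and 1 higher, and ZCRB1 changed by -0.66 ± 0.17. Its shares called lower were 8.33% in 23132/87 and 25% in SW48, against 23.2% and 19.2% of all genes. Its shares called higher were 16.7% and 8.33%, against 23.3% and 10.1%.

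Sm ring assembly on the RNA depends on the SMN complex and the methylosome. Of 17 such genes, 6 were called lower and 3 higher in 23132/87, and 2 lower and 0 higher in SW48. That is 35.3% lower in 23132/87 and 11.8% in SW48, against 23.2% and 19.2% of all genes. The share called higher in 23132/87 was 17.6%, against 23.3% of all genes. Their summed values overlapped between MyrC and CON in both lines. GEMIN4 (-1.15 ± 0.12) and GEMIN6 (-0.69 ± 0.16) led in 23132/87, and COPRS (-0.51 ± 0.11) and GEMIN8 (-0.42 ± 0.14) in SW48. COPRS was also called lower in 23132/87, at -0.60 ± 0.11. GEMIN8 was not called there, at 0.30 ± 0.14. SMN1 (0.55 ± 0.13) and SMN2 (0.49 ± 0.13) were both among the 3 called higher in 23132/87. They are near-identical copies, so their values are uncertain.

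Factors that recognise the 3′ splice site had 7 of 9 called lower in 23132/87 and 2 of 9 in SW48, with 0 higher in either. That is 77.8% lower in 23132/87, against 23.2% of all genes. In SW48 it is 22.2%, near the 19.2% of all genes. U2AF2, the large subunit of U2AF, changed by -0.58 ± 0.10 in 23132/87 and by -0.42 ± 0.11 in SW48. The helicase DHX15 changed by -0.87 ± 0.09 in 23132/87 and was not called in SW48. The helicase DDX46 was called lower in both lines, at -0.52 ± 0.11 in 23132/87 and -0.36 ± 0.11 in SW48. Of 33 genes of the tri-snRNP, the Prp19 complex and catalysis, 6 were lower and 4 higher in 23132/87 and 4 lower and 2 higher in SW48. The shares called lower, 18.2% in 23132/87 and 12.1% in SW48, were below those of all genes, 23.2% and 19.2%. So were the shares called higher, 12.1% in 23132/87 and 6.06% in SW48, against 23.3% and 10.1%. The helicase DDX23 changed by -0.71 ± 0.09 in 23132/87 and by -0.64 ± 0.11 in SW48. EFTUD2 changed by -0.64 ± 0.10 in 23132/87. PRPF31 was called lower in both lines, at -0.59 ± 0.15 in 23132/87 and -0.63 ± 0.12 in SW48.

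Other splicing repressors and activators had 20 of 46 called lower and 5 higher in 23132/87, and 10 of 44 lower and 2 higher in SW48. That is 43.5% lower in 23132/87 and 22.7% in SW48, against 23.2% and 19.2% of all genes. The shares called higher were 10.9% and 4.55%, against 23.3% and 10.1%. SFPQ, a paraspeckle protein, had 29.2 ± 1.80 in MyrC and 92.0 ± 3.20 in CON in 23132/87 (log2 change -1.62 ± 0.09). ESRP1, an epithelial splicing regulator, was higher in both lines, at 1.29 ± 0.11 in 23132/87 and 1.12 ± 0.17 in SW48. ESRP2, of the same list, was called lower in 23132/87, at -0.61 ± 0.13, and was not called higher in SW48. MBNL2 was higher in both lines, at 0.98 ± 0.23 in 23132/87 and 0.95 ± 0.19 in SW48. Epithelial markers also moved with treatment, with 4 of 7 called lower and 2 higher in 23132/87, and 0 lower and 5 higher in SW48. In 23132/87 that is 57.1% lower and 28.6% higher, against 23.2% and 23.3% of all genes. In SW48 it is 71.4% higher, against 10.1% of all genes. The keratin KRT18 changed by -1.60 ± 0.17 in 23132/87 and by 1.57 ± 0.29 in SW48. KRT8 changed by -1.48 ± 0.19 in 23132/87 and by 1.19 ± 0.26 in SW48. The junction genes CLDN7 and CDH1 were higher in both lines, CLDN7 by 1.06 ± 0.10 in 23132/87 and 1.07 ± 0.17 in SW48, and CDH1 by 0.56 ± 0.10 in 23132/87 and 0.61 ± 0.19 in SW48. The part of these markers in the results was not tested. The summed epithelial markers ran from 3158 to 4231 in MyrC and from 7911 to 10566 in CON in 23132/87, and from 2889 to 4076 in MyrC and from 1062 to 1847 in CON in SW48. KRT8 and KRT18 make up most of the sum in 23132/87, with CON means of 4558 for KRT8 and 3049 for KRT18.

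Of 8 genes for kinases and linked regulators of SR proteins, 3 were called higher and 1 lower in 23132/87, and 2 higher and 1 lower in SW48. The shares called higher were 37.5% in 23132/87 and 25% in SW48, against 23.3% and 10.1% of all genes. Those called lower were 12.5% in each line, against 23.2% and 19.2%. CLK1, which phosphorylates SR proteins, changed by 0.89 ± 0.16 and CLK3 by 0.51 ± 0.13 in 23132/87, while PRPF4B changed by -0.48 ± 0.14 and DYRK1A by 0.40 ± 0.13 in SW48. SR-like cofactors had 3 of 19 lower and 2 higher in 23132/87, and 5 of 19 lower and 0 higher in SW48. That is 15.8% lower in 23132/87 and 26.3% in SW48, against 23.2% and 19.2% of all genes. The share called higher in 23132/87 was 10.5%, against 23.3% of all genes. SRRT changed by -0.77 ± 0.11 in 23132/87 and by -0.65 ± 0.11 in SW48, with SREK1 at 0.35 ± 0.10 in 23132/87 and BUD13 at -0.50 ± 0.13 in SW48. Exon junction and decay genes had 4 of 15 lower and 5 higher in 23132/87, led by EIF4A3 at -0.56 ± 0.09 and SMG1 at 0.56 ± 0.15. In SW48, 1 of 15 was lower and 1 higher, UPF3A at -0.35 ± 0.12 and MAGOHB at 0.55 ± 0.18. Of this list 26.7% were lower in 23132/87 and 6.67% in SW48, against 23.2% and 19.2% of all genes. Called higher were 33.3% and 6.67%, against 23.3% and 10.1%. UPF3A was called the other way in 23132/87, at 0.48 ± 0.10, and MAGOHB was not called there, at 0.18 ± 0.13.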

How the data were processed

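Stranded mRNA libraries of both lines were sequenced by the authors, whose processing notes name FastQC, STAR and the build GRCh38, without versions. For each line the authors deposited a gene-level table of normalized expression signal. This signal resembles FPKM or TPM and is not counts, and the sources used here name no unit, counting tool or annotation, so read depth is unknown. The listed genes all lie at or above 1 in every library of their line, so genes low or silent in a condition are not analysed here.

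Each line's 6 libraries were fitted with limma 3.58.1 (R 4.3.3, with its trend option) after log2(value + 1) transformation and removal of genes averaging under 1, which removed 0 genes. P-values were adjusted over all genes by the Benjamini-Hochberg method, with a threshold of 0.05. Fold changes on this scale understate the change of low genes. A line-by-treatment term fitted to all 12 libraries tested the difference between lines. Errors of log2 changes are limma standard errors, and intervals are at 95%. The scripts were tested on simulated data.

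Pseudogenes were dropped by RefSeq biotype, transcripts came from GENCODE release 29 and promoters from RefSeq (GRCh38.p14). Members, gene lists and tests were chosen with earlier results of these data known. Full statistics were given to members chosen by rule. In each line these were up to 3 with the largest called rise and 3 with the largest called fall (mean of at least 10). Also included were the 2 with the largest called change in each family, those called for the difference, and SRSF1, SRSF3, HNRNPA1, SNRPB and SF3B1. Of each other list the 2 largest called changes per line were named, with some further values beside them. Alternatives were other scalings, pseudocounts of 0.1 and 5, other filters, limma without a trend, all libraries in one fit, a replicate block and leaving out each library. SW48 MyrC columns carry numbers 2, 3 and 4, taken as replicates 1, 2 and 3 from the titles.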

Additional observations from a re-analysis of the deposited data

Results flagged for a closer look

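The change with MyrC differed between the lines, by the test of the difference itself, for 3 genes. For SRSF1 the SW48 change minus the 23132/87 change was 0.70 on the log2 scale, and it was 0.57 for SF3B3. For SRSF11 it was -0.39, a difference between opposite, uncalled changes.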

How the results depend on the processing

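Quantile normalization moved several values: in 23132/87 the class medians became -0.14 (SR proteins), -0.28 (hnRNPs), -0.25 (U1 and U2) and -0.026 (SF3), and 2 members were called higher. In SW48 they became -0.27 (SR proteins), -0.23 (hnRNPs), -0.58 (Sm core) and 0.018 (SF3, reversed), SRSF1 reversed to 0.029, and 5 members differed between lines. Rescaling without 7SL, small nuclear RNA and mitochondrial pseudogenes gave -0.22 (SR proteins), -0.27 (hnRNPs), -0.30 (U1 and U2) and -0.00104 (SF3) in 23132/87, and -0.27 for hnRNPs in SW48. Median centring gave -0.41 for U1 and U2 in 23132/87. The causes were not tested. Leaving out 1 library gave class medians of -0.42 to -0.26 (SR proteins), -0.39 to -0.30 (hnRNPs) and -0.15 to -0.052 (SF3) in 23132/87. In SW48 it gave -0.47 to -0.25 (SR proteins), -0.88 to -0.65 (Sm core) and -0.16 to -0.0051 (SF3). The count called higher in 23132/87 was 0 to 1, and the count called lower 26 to 34 there and 19 to 25 in SW48. Of the member calls, 26 of 37 in 23132/87, 19 of 25 in SW48 and 2 of 3 for the difference were kept without any 1 library. SF3B1 in 23132/87 ran from -0.014 (reversed, without MyrC replicate 1) to 0.12 when 1 library was left out, and was 0.19 after quantile normalization and 0.15 after rescaling.

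Deviations of same-numbered libraries correlated at -0.24, 0.11 and -0.27 in 23132/87 and at -0.07, -0.18 and -0.14 in SW48 by title number. By column number the SW48 values were 0.15 and 0.27, over 2 pairs, the highest of any SW48 pairs. With so few libraries these values cannot settle whether the libraries were paired. With a replicate block 27 members were called lower in 23132/87, and 1 differed between lines (block by title number, which ended the SF3B3 and SRSF11 differences). Blocking by column number moved the SW48 median of SR proteins to -0.26 and left 19 called lower in SW48, without SNRPA, SNRPD1, SF3B4, HNRNPC, HNRNPUL1 and HNRNPA1L2. Calls of 28, 18 and 1 were kept in both blocks. Read depth is unknown, so small changes of low genes cannot be bounded by counting error.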
